A study of Sus scrofa with 11 samples.

Results

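SLC25A20, ACAA2, DECR1 and HADH, 4 genes of mitochondrial fatty acid oxidation, were followed across 11 whole-transcript arrays of pig heart. The members were the probe sets whose single gene symbol in the platform annotation was 1 of these 4 symbols. Each gene had 1 such probe set, which made 4 of the 27558 probe sets in the deposited table. The probe sets were 15219842 for SLC25A20, 15194025 for ACAA2, 15283571 for DECR1 and 15324210 for HADH. All 4 passed a filter on mean signal, which dropped the dimmest 25% of the table, and 20668 probe sets were tested.

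The samples were ischemic-zone left ventricle of intact male Yorkshire swine, in all of which an ameroid constrictor, a ring that slowly closes the vessel, had been put on the left circumflex coronary artery. The ND group (3 arrays) ate a normal diet and had vehicle injected into the heart muscle, and the ND+EV group (3 arrays) ate the same diet and had extracellular vesicles (EV), membrane particles shed by cells, injected into the ischemic territory. The HFD group (2 arrays) ate a high fat diet and had vehicle, and the HFD+EV group (3 arrays) ate that diet and had EV. Diets lasted 12 weeks and tissue was taken 5 weeks after the injection. The titles call the arrays biological replicates. The sources used here do not give the cell source or dose of the EV or the age of the animals. No group without the constrictor is among the samples, so every value describes ischemic muscle. By its title, the series concerns a loss of vessel growth after EV in animals on the high fat diet.

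The heart draws most of its energy from fatty acids, which are burned inside mitochondria. A long-chain fatty acid is bound to coenzyme A, handed to carnitine to cross the inner mitochondrial membrane, and then shortened in rounds of beta-oxidation, each made of a dehydrogenation, a hydration, another dehydrogenation and a thiolytic cleavage. SLC25A20 is the carrier that swaps acylcarnitine for carnitine across the inner membrane. HADH carries out the second dehydrogenation of the round on medium- and short-chain substrates, and ACAA2 is a thiolase that cleaves off acetyl-CoA at its end. DECR1 is the 2,4-dienoyl-CoA reductase that makes polyunsaturated fatty acids fit for the round.

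No member passed the threshold in any comparison. The clearest patterns were a higher SLC25A20 signal in ND+EV than in ND and higher HADH and ACAA2 signals in HFD than in ND. Values are the deposited log2 signal, on which a difference of 1 is a doubling, and each is given as mean ± SD. Differences between groups come from a limma fit of 1 mean per group to all 11 arrays, with their standard error (SE), and p-values were adjusted by Benjamini-Hochberg over the 20668 probe sets, with a threshold of 0.05. Signals of different probe sets are on different scales and were not set against each other. The arrays hold whole tissue, so that fewer heart muscle cells and less RNA per cell cannot be told apart.

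Some arrays stood apart from the rest. ND replicates 1 and 3 had the lowest mean correlation with the other arrays (0.946 and 0.952, against 0.965 to 0.972) and the narrowest spread of log2 signal over all probe sets (SD 1.45 and 1.47), while the HFD arrays and HFD+EV replicates 2 and 3 had the widest (1.58 to 1.62). HFD+EV replicate 1 had the narrowest spread among the high fat diet arrays (1.51). In fits without ND replicates 1 and 3, ND was 1 array (replicate 2), and in fits without an HFD array HFD was 1 array, each assumed to vary like the other groups. Cardiac muscle markers were present throughout (8 of 12 measured, mean log2 signal from 10.83 to 11.31 on every array), as the tissue label states. The fat cell markers, of which 3 of 5 were measured, had a mean log2 signal between 4.04 and 4.38 on every array. LEP lay below the filter, while PLIN1 (mean 4.36) and CIDEC (mean 4.91) passed it.

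SLC25A20, the acylcarnitine carrier, gave 5.79, 6.30 and 6.20 on ND replicates 1, 2 and 3 and 6.71, 6.53 and 6.85 on the ND+EV replicates in the same order. Its signal was 6.48 and 6.42 on the HFD arrays and 6.48, 6.51 and 6.46 on the HFD+EV arrays. All 3 ND arrays lay below the other 8, and all 3 ND+EV arrays lay above them. The 5 HFD and HFD+EV arrays, at 6.42 to 6.51, lay in the gap between these groups. In order of the mean, ND+EV (6.70 ± 0.16, n = 3) was followed by HFD+EV (6.48 ± 0.03, n = 3), HFD (6.45 ± 0.05, n = 2) and ND (6.10 ± 0.27, n = 3). HFD+EV and HFD did not differ beyond their spread.

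ACAA2, the thiolase, had the widest spread of the 4 genes, with an SD of 0.57 in log2 signal over the 11 arrays. Its signal was 5.28, 6.43 and 6.08 on the ND arrays, 6.51, 6.92 and 6.27 on the ND+EV arrays, 6.998 and 6.58 on the HFD arrays and 6.53, 7.24 and 7.25 on the HFD+EV arrays. ND replicate 1 was the lowest of the 11, and HFD+EV replicates 2 and 3 were the highest. From lowest to highest, the group means came in the order ND (5.93 ± 0.59, n = 3), ND+EV (6.57 ± 0.33, n = 3), HFD (6.79 ± 0.29, n = 2) and HFD+EV (7.005 ± 0.41, n = 3). Each neighbouring pair in that order overlapped.

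DECR1, the dienoyl-CoA reductase, had the narrowest range (0.87). Its signal was 7.49, 7.18 and 7.14 on the ND arrays, 7.47, 7.93 and 7.50 on the ND+EV arrays, 7.77 and 7.32 on the HFD arrays and 7.50, 8.004 and 7.62 on the HFD+EV arrays. Neighbouring groups overlapped, while all 3 HFD+EV arrays lay just above all 3 ND arrays (lowest 7.500 against highest 7.495). Group means were 7.71 ± 0.26 in HFD+EV (n = 3), 7.63 ± 0.26 in ND+EV (n = 3), 7.55 ± 0.32 in HFD (n = 2) and 7.27 ± 0.20 in ND (n = 3), and no neighbours differed by more than their spread. On ND replicate 1, where SLC25A20, ACAA2 and HADH were at their lowest, DECR1 was at the highest value of its group.

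HADH, the hydroxyacyl-CoA dehydrogenase, gave 7.92, 8.62 and 8.02 on the ND arrays and 8.57, 8.52 and 8.51 on the ND+EV arrays. Its signal was 9.22 and 8.86 on the HFD arrays and 8.32, 8.99 and 9.02 on the HFD+EV arrays. Of the 5 high fat diet arrays 4 lay above every normal diet array, and HFD+EV replicate 1 lay among the normal diet arrays. ACAA2 had 3 such arrays, DECR1 1 and SLC25A20 0, and full separation of the diets in that direction, which no member showed, was seen in 1.61% of probe sets. Means were 9.04 ± 0.25 in HFD (n = 2), 8.78 ± 0.40 in HFD+EV (n = 3), 8.53 ± 0.03 in ND+EV (n = 3) and 8.19 ± 0.38 in ND (n = 3). No neighbours in this order were separated, and the tight ND+EV arrays lay inside the range of the ND arrays.

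**Figure D1:**
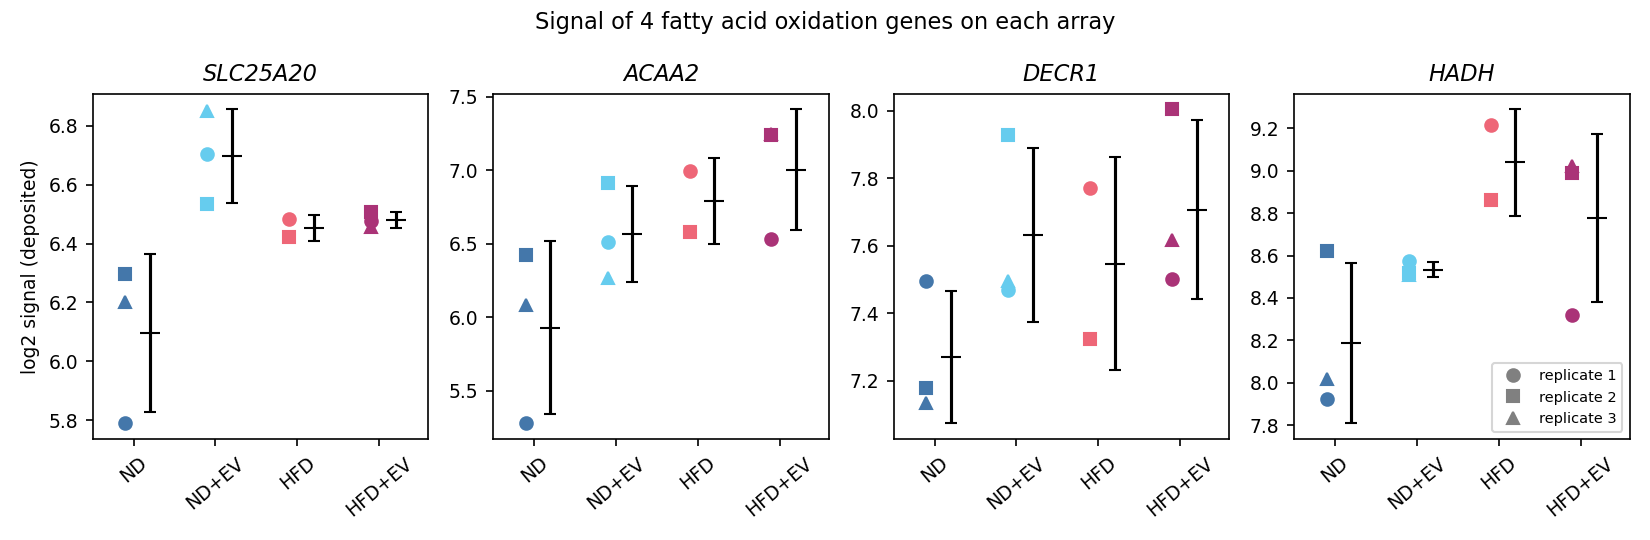
Log2 signal of each gene (vertical axis, its own scale per panel) on every array of the 4 groups; symbols mark the replicate number, and the horizontal bar with whiskers is the mean ± SD (n = 3, or 2 in HFD). SLC25A20 is lowest in ND and highest in ND+EV, while HADH is above 8.8 on 4 of the 5 high fat diet arrays.

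The effect of EV under the normal diet was asked first. SLC25A20 was 0.60 ± 0.15 (SE) higher in ND+EV than in ND, a fold of 1.52, with a 95% interval from 0.28 to 0.92 and an adjusted p of 0.539 in limma. It ranked 57 by p among the 20668 probe sets. The groups did not overlap, as was so in the higher direction for 6.32% of probe sets. Without ND replicate 1 the difference was 0.45, and without ND replicates 1 and 3 it was 0.40.

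ACAA2 was 0.64 ± 0.30 (SE) higher in ND+EV (interval -0.03 to 1.31, limma adjusted p = 0.605), with 2 of 3 arrays above every ND array. Without ND replicate 1 its difference was 0.31, and without ND replicate 2 it was 0.89. Without ND replicates 1 and 3 the ACAA2 difference was 0.14. DECR1 differed by 0.36 ± 0.19 (SE; -0.06 to 0.79) and HADH by 0.35 ± 0.22 (SE; -0.15 to 0.84), with limma adjusted p of 0.628 and 0.669. DECR1 was at 0.21 without ND+EV replicate 2 and 0.45 without ND replicates 1 and 3. HADH was at 0.21 without ND replicate 1, 0.56 without ND replicate 2 and -0.087 without ND replicates 1 and 3. On all arrays the 4 differences were above 0, as were 49.2% of those of all probe sets. With limma 0 of the 4 members and 0% of all probe sets passed, and 1758 probe sets (8.51%) had an unadjusted p below 0.05.

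Under the high fat diet the EV and vehicle groups lay closer together when all arrays were used. Without ND replicates 1 and 3 this did not hold for ACAA2 and HADH. Their EV differences on the normal diet were then 0.14 and -0.087. SLC25A20 differed by 0.027 ± 0.16 (SE) between HFD+EV and HFD, with a 95% interval from -0.33 to 0.39. ACAA2 differed by 0.21 ± 0.34 (-0.54 to 0.96), DECR1 by 0.16 ± 0.21 (-0.31 to 0.63) and HADH by -0.26 ± 0.25 (-0.82 to 0.29). Leaving out 1 array at a time, ACAA2 ranged from 0.0066 (without HFD replicate 2) to 0.45 (without HFD+EV replicate 1) and HADH from -0.44 to -0.034 with the same arrays left out. DECR1 ranged from -0.064 without HFD replicate 2 to 0.38 without HFD replicate 1. The limma adjusted p ranged from 0.956 for HADH to 0.995 for SLC25A20. The groups overlapped for every member, while 23.2% of probe sets did not overlap in either direction. For 3 of the 4 the difference was above 0, as it was for 49.6% of probe sets. Here too limma passed 0 members and 0% of probe sets, and at an unadjusted p below 0.05 were 1146 probe sets (5.54%). The intervals leave room for a difference of either sign in each gene.

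Whether the EV difference itself depended on the diet was tested by subtracting the EV difference on the normal diet from that on the high fat diet. For SLC25A20 this difference was -0.57 ± 0.22 (SE; 95% interval -1.06 to -0.09, limma adjusted p = 0.572). HADH gave -0.61 ± 0.34 (-1.35 to 0.14, limma adjusted p = 0.628), ACAA2 -0.42 ± 0.46 (-1.43 to 0.58) and DECR1 -0.20 ± 0.29 (-0.84 to 0.43). All 4 estimates were below 0, as were 49.8% of those of all probe sets, and limma passed 0 members and 0% of probe sets, with 1740 (8.42%) at an unadjusted p below 0.05. Once HFD+EV replicate 1 and the ND arrays 1 and 3 were left out, the SLC25A20 estimate was -0.37, that of HADH was 0.053 and that of ACAA2 was 0.31.

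Between the diets in vehicle-injected hearts, HADH and ACAA2 showed the largest differences of the 4. HADH was 0.85 ± 0.25 (SE) higher in HFD than in ND, a fold of 1.81, with a 95% interval from 0.30 to 1.41 and a limma adjusted p of 0.0882. It passed only without ND replicate 2 (1.07, limma adjusted p = 0.0344), the ND array with the highest HADH signal, and was 0.42 without ND replicates 1 and 3. ACAA2 was 0.86 ± 0.34 (SE) higher, a fold of 1.82 (0.11 to 1.61, limma adjusted p = 0.160), and its difference was 0.54 without ND replicate 1 and 0.36 without ND replicates 1 and 3.

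SLC25A20 was 0.36 ± 0.16 (SE) higher in HFD (-0.003 to 0.72, limma adjusted p = 0.212), or 0.20 without ND replicate 1. DECR1 differed by 0.28 ± 0.21 (-0.20 to 0.75, limma adjusted p = 0.449), and its sign turned (-0.063) after cyclic loess normalization. In the deposited values of SLC25A20, ACAA2 and HADH both HFD arrays lay above all ND arrays. After quantile normalization the groups overlapped for all 3, and after cyclic loess for SLC25A20, whose difference was then 0.18 and 0.16. As deposited, the same held for 19.4% of all probe sets, which makes separation common in this comparison. All 4 differences were above 0, as were 47.5% of those of all probe sets. With limma 0 of the 4 members passed, against 0.735% of all probe sets in either direction and 0.513% in the higher direction. At an unadjusted p below 0.05 were 24% of all probe sets, with HADH and ACAA2 among them.

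Between the diets in EV-injected hearts the differences were smaller in size when all arrays were used. Without ND replicates 1 and 3 this did not hold for ACAA2 and SLC25A20. Their differences in vehicle-injected hearts were then 0.36 and 0.16. ACAA2 was 0.44 ± 0.30 (SE) higher in HFD+EV than in ND+EV (-0.23 to 1.11, limma adjusted p = 0.761), and HADH 0.24 ± 0.22 higher (-0.25 to 0.74, limma adjusted p = 0.828). Both had 2 of 3 HFD+EV arrays above every ND+EV array. Without HFD+EV replicate 1 the difference was 0.68 for ACAA2 and 0.47 for HADH. DECR1 differed by 0.076 ± 0.19 (-0.35 to 0.50). SLC25A20 alone of the 4 pointed the other way (48.8% of probe sets had a difference above 0), at -0.22 ± 0.15 (SE; -0.54 to 0.11, limma adjusted p = 0.757), with all 3 HFD+EV arrays below all 3 ND+EV arrays, as was so for 6.93% of probe sets. The limma threshold was passed by 0 members and 0% of probe sets, and an unadjusted p below 0.05 was found for 1522 (7.36%).

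The mean of both diet differences was 0.55 ± 0.17 (SE) for HADH (0.18 to 0.92, limma adjusted p = 0.0944) and 0.65 ± 0.23 for ACAA2 (0.15 to 1.15, limma adjusted p = 0.124). It was 0.18 ± 0.14 for DECR1 and 0.070 ± 0.11 for SLC25A20. This mean was computed after the data were seen. In it 0 members passed, against 1.17% of all probe sets (24.7% at an unadjusted p below 0.05), and all 4 were above 0, as were 47.4% of probe sets. HADH passed with estimated array weights (0.55, limma adjusted p = 0.0462), without ND replicate 2 (0.66, 0.0381) and without HFD+EV replicate 1 (0.66, 0.0325). These comparisons share groups with one another, so that their values are not separate evidence.

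**Figure D2:**
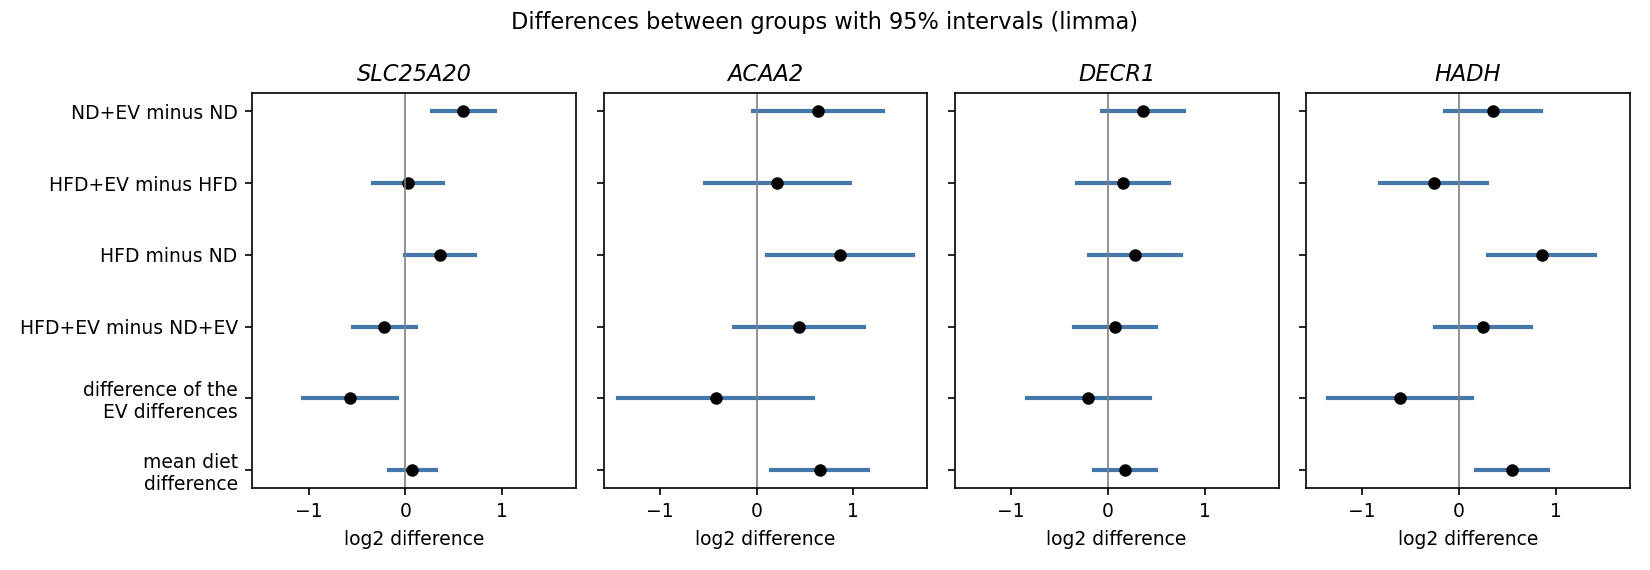
Difference in log2 signal (horizontal axis) for each gene in the comparisons named at the left, as points with 95% intervals from limma (lines). The intervals for SLC25A20 in ND+EV minus ND (0.28 to 0.92) and HADH in HFD minus ND (0.30 to 1.41) lie above 0. So do those of ACAA2 in HFD minus ND (0.11 to 1.61) and of HADH and ACAA2 in the mean diet difference. The interval for SLC25A20 in the difference of the EV differences lies below 0 (-1.06 to -0.09). No difference passed after adjustment over all probe sets.

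HADH and ACAA2 moved with the spread of signal on the array. Across the 11 arrays, the SD of log2 signal over all probe sets correlated with HADH at r = 0.90 (Spearman 0.87) and with ACAA2 at r = 0.81 (Spearman 0.87). Within groups, after each group mean was taken away, r was 0.75 for HADH and 0.79 for ACAA2. Without HFD replicate 2 and HFD+EV replicate 3, the arrays farthest from the median spread, r was 0.94 and 0.93. For SLC25A20 and DECR1 r was 0.36 and 0.42 over all arrays, and 0.47 and 0.73 without those arrays. Within groups it was 0.18 for both. Over the 20668 probe sets the median r, on all arrays, was -0.074. These correlations are descriptions, since each point is 1 array and each array's spread is computed from the same values.

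The spread also followed the diet, with both HFD arrays among the widest and 2 of the 3 ND arrays the narrowest. Cyclic loess, which is meant to even out such intensity-dependent shifts, gave 0.43 ± 0.18 (SE) for HADH in HFD minus ND (limma adjusted p = 0.205) in place of 0.85. For ACAA2 it gave 0.64 ± 0.31 in place of 0.86. On that scale ND replicates 1 and 3 had the widest spread (SD 1.55 and 1.54, against 1.51 to 1.53 on the other arrays). Quantile normalization, which makes all spreads equal, gave 0.49 ± 0.21 and 0.69 ± 0.32. For SLC25A20 in ND+EV minus ND these settings gave 0.55 ± 0.15 and 0.59 ± 0.15, against 0.60 as deposited. The part of the spread in the diet differences of HADH and ACAA2 was not tested further.

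**Figure D3:**
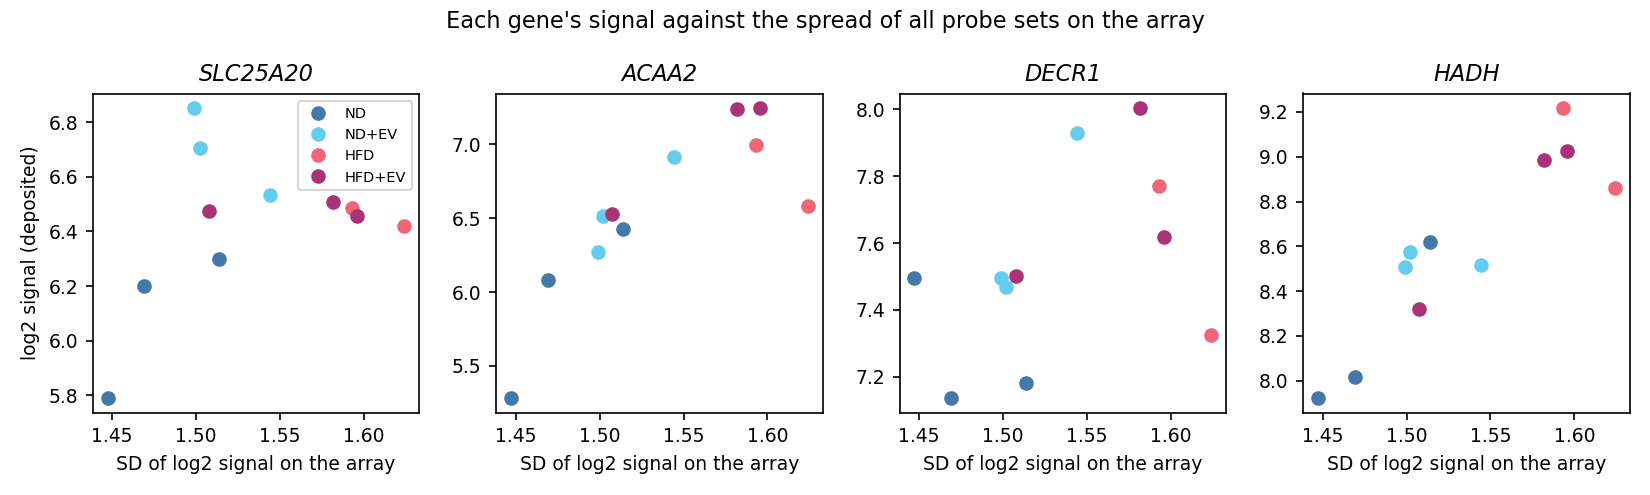
Log2 signal of each gene (vertical axis) against the SD of log2 signal over all 27558 probe sets on the same array (horizontal axis), 1 point per array, coloured by group. Over all arrays HADH (r = 0.90) and ACAA2 (r = 0.81) climb with the spread, whereas SLC25A20 (r = 0.36) and DECR1 (r = 0.42) follow it less. Without HFD replicate 2 and HFD+EV replicate 3, r is 0.73 for DECR1 and 0.47 for SLC25A20.

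Among the members, ACAA2 and HADH had the most alike profiles, with r = 0.85 over 11 arrays (Spearman 0.84) and 0.81 within groups. SLC25A20 correlated with ACAA2 at 0.60 and with HADH at 0.51, and DECR1 with these at 0.58 and 0.48. SLC25A20 and DECR1 were the least alike by Pearson correlation, at 0.29 over all arrays and -0.49 within groups. By rank their correlation was higher (Spearman 0.53), and SLC25A20 and HADH were the least alike (Spearman 0.25). The pairs thus differed in likeness, and whether the 4 genes share a single profile was not tested.

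The genes most like each member were sought among 9865 probe sets with another named gene, by Pearson correlation over the 11 arrays. For SLC25A20 they were CACYBP (0.92), WAPL (0.92), CYYR1 (0.90) and UBE2L3 (0.89), and the most opposed were TECPR2 (-0.93) and JMJD4 (-0.91). ACAA2 was most like PAIP2 (0.97), FGL2 (0.97), the cardiac troponin C gene TNNC1 (0.96) and EIF3K (0.96), and most opposed to ASIP (-0.95) and VPS16 (-0.94). DECR1 was most like TRIM24 (0.94), GOPC (0.90), MS4A4A (0.90) and EXOC5 (0.89), and opposed to P2RX7 (-0.94) and CHD3 (-0.88). HADH was most like B3GALT2 (0.97), ARIH2 (0.97), PREP (0.96) and BMPR2 (0.96), and opposed to RIMS3 (-0.96) and CABP2 (-0.95). No gene was shared among the 4 sets. Such values are the extremes of many correlations over few arrays.

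The wider pathway was described with a list of 66 genes for fatty acid uptake, oxidation and its control, of which 43 were tested. Of the rest, 22 had no probe set with that single symbol, among them CPT1B, ACADVL, HADHB and PPARGC1A, and ACSL6 fell below the filter. No gene of the list passed in any comparison. In HFD minus ND, 32 of the 43 were higher and 11 lower, with a median log2 difference of 0.26 against -0.022 over all probe sets, or 0.28 over the 25% of tested probe sets with the highest signal. Without the 4 members the count was 28 of 39 and the median 0.18.

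In that comparison, as deposited, no gene of the steps from the carnitine shuttle to electron transfer had a negative difference. All 4 genes of the carnitine shuttle (median 0.46), all 6 acyl-CoA dehydrogenases (0.45), all 4 genes of hydration, second dehydrogenation and thiolysis (0.86), both genes for unsaturated fatty acids (0.38) and both of electron transfer (0.53) had a positive difference. These steps hold 18 of the 32 positive genes, and over all probe sets 47.5% had a positive difference. The step counts and medians include the 4 members, and HADH (0.85) and ACAA2 (0.86) set the median of their own step. Of the 6 genes of uptake and activation 4 had a positive difference (median 0.12), of the 5 lipolysis genes 3 (0.17), of the 5 peroxisomal genes 3 (0.098) and of the 9 genes of control 4 (-0.00038).

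The genes with the smallest p beside the members were ACADSB, a short- and branched-chain acyl-CoA dehydrogenase (0.74 ± 0.19, SE; limma adjusted p = 0.0698), the acyl-CoA thioesterase ACOT13 (1.03 ± 0.27, 0.0775) and the long-chain acyl-CoA dehydrogenase ACADL (0.70 ± 0.19, 0.0778). ACADM, the medium-chain dehydrogenase, differed by 0.73 ± 0.22 (0.0887), the carnitine acyltransferase CPT2 by 0.56 ± 0.22 (0.157) and HADHA, the alpha subunit of the trifunctional protein, by 0.41 ± 0.21 (0.260). PPARA, a nuclear receptor that switches on fatty acid oxidation genes, differed by 0.26 ± 0.16 (0.342).

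In ND+EV minus ND, 29 of the 43 genes were higher, with a median of 0.076 against -0.0046 over all probe sets and 0.096 over the 25% with the highest signal (25 of 39 and 0.067 without the members). The carnitine shuttle (4 of 4 above 0, median 0.21) and the hydration to thiolysis step (4 of 4, 0.37) hold the members other than DECR1. Acyl-CoA dehydrogenases (5 of 6, 0.22), electron transfer (2 of 2, 0.19) and unsaturated fatty acids (1 of 2, 0.17) had medians above 0 as well. Uptake and activation had 3 of 6 above 0 (0.028), lipolysis 3 of 5 (0.042), peroxisomal oxidation 2 of 5 (-0.040) and control 5 of 9 (0.067). Over all probe sets 49.2% were above 0. The other genes with the smallest p were ACADSB (0.46 ± 0.17, SE; limma adjusted p = 0.548), the fatty acid uptake receptor CD36 (0.83 ± 0.38, 0.590) and ACOT13 (0.49 ± 0.25, 0.624). ACADM (0.26 ± 0.19), HADHA (0.27 ± 0.19), PPARA (0.16 ± 0.14) and CPT2 (0.039 ± 0.19) were nearer to 0.

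In HFD+EV minus HFD, 21 of the 43 were higher and 22 lower, with a median of -0.0023, as over all probe sets (-0.0023) and against -0.077 over the 25% with the highest signal. ACSL1, which binds fatty acids to coenzyme A (0.40 ± 0.18, SE; limma adjusted p = 0.896), the lipase LIPE (0.37 ± 0.17, 0.903) and DECR2, the peroxisomal counterpart of DECR1 (-0.33 ± 0.17, 0.904), had the smallest p. HADHA (0.27 ± 0.21), PPARA (0.059 ± 0.16), ACADM (-0.17 ± 0.22) and CPT2 (-0.23 ± 0.22) lay on both sides of 0.

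In HFD+EV minus ND+EV, 31 of 43 were higher (median 0.15, against -0.0066 over all probe sets and 0.089 over the 25% with the highest signal). CPT1A, the liver-type enzyme that hands fatty acids to carnitine (0.36 ± 0.13, SE; limma adjusted p = 0.622), ACSL1 (0.42 ± 0.16, 0.622) and ACADL (0.43 ± 0.17, 0.636) led, and HADHA (0.42 ± 0.19), ACADM (0.30 ± 0.19), CPT2 (0.29 ± 0.19) and PPARA (0.16 ± 0.14) had positive differences. For the difference of the EV differences 29 of 43 were below 0 (median -0.15, against 0.0013 over all probe sets and -0.17 over the 25% with the highest signal), with ECHS1, the enoyl-CoA hydratase (-1.05 ± 0.46, SE; limma adjusted p = 0.583), ACADSB (-0.51 ± 0.25, 0.604) and the peroxisomal transporter ABCD2 (0.51 ± 0.26, 0.614) at the smallest p. ACADM (-0.43 ± 0.29), CPT2 (-0.27 ± 0.29), PPARA (-0.10 ± 0.22) and HADHA (0.0043 ± 0.28) followed.

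**Figure D4:**
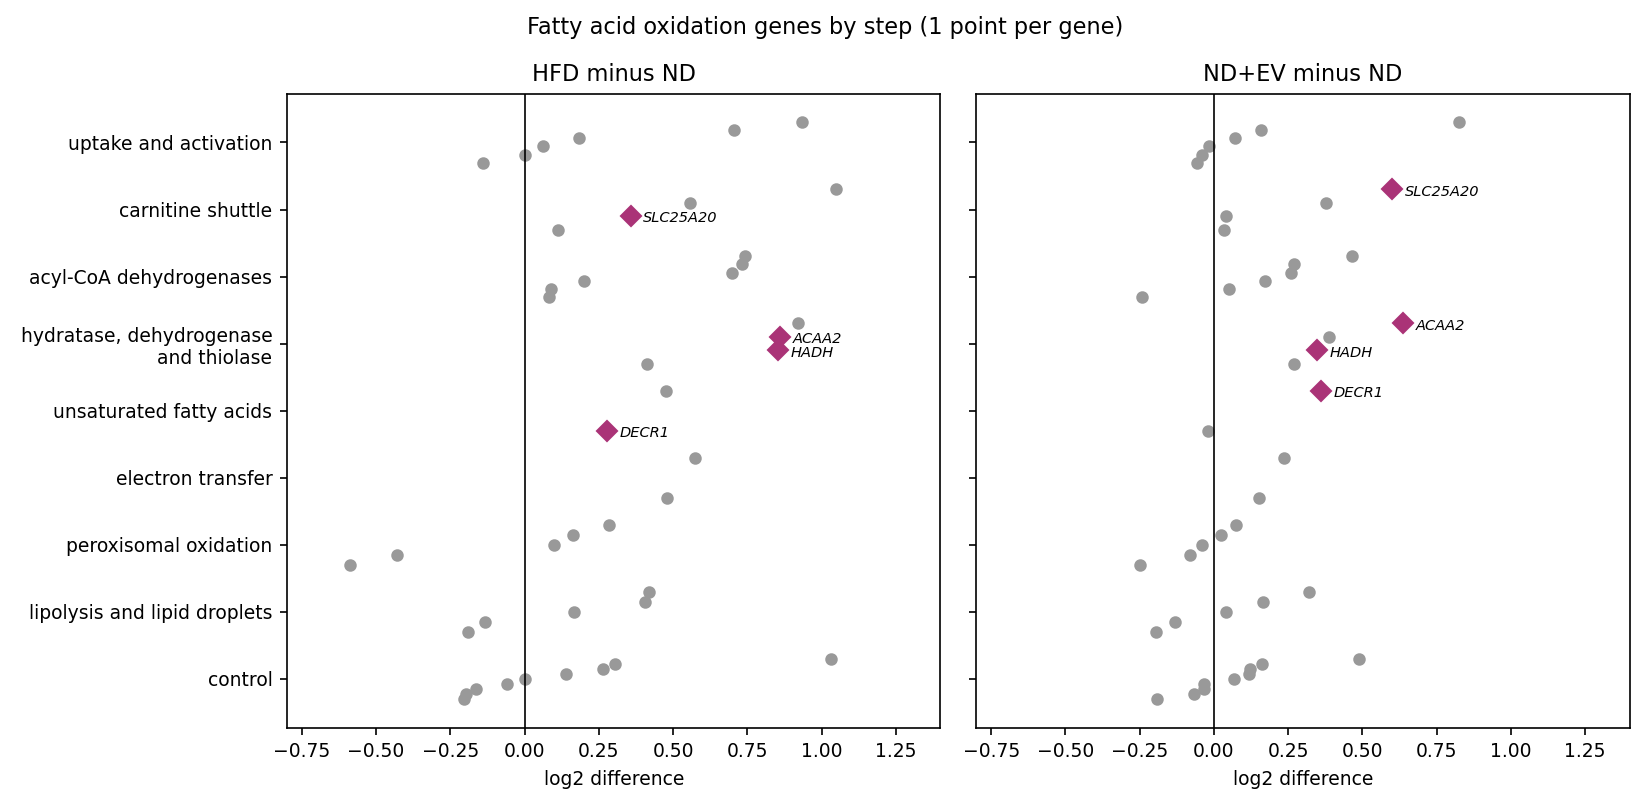
Difference in log2 signal (horizontal axis) of the 43 tested fatty acid oxidation genes by step of the pathway (vertical axis), 1 point per gene, in HFD minus ND (left) and ND+EV minus ND (right); diamonds mark the 4 members. In HFD minus ND, as deposited, the steps from the carnitine shuttle to electron transfer hold no gene below 0. In ND+EV minus ND SLC25A20 has the highest value of its step (0.60) and ACAA2 that of its step (0.64).

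The neighbouring pathways of energy metabolism showed differences of the same sign in HFD minus ND. The median was 0.61 for 11 TCA cycle genes and 0.69 for 11 glycolysis genes, all higher, and 1.03 for 24 nuclear-encoded respiratory chain genes, all higher and 2 past the threshold, against 0.26 for fatty acid oxidation and 0.28 for the 25% of probe sets with the highest signal. Over all probe sets 47.5% were above 0 and 0.513% passed in this direction, and all 152 calls in either direction were lost under cyclic loess and quantile normalization. In ND+EV minus ND these medians were 0.26, 0.29 and 0.71, against 0.076. The mean profile of the respiratory chain list over the 11 arrays correlated with ACAA2 at 0.94, HADH at 0.90, SLC25A20 at 0.71 and DECR1 at 0.53. With the other 39 fatty acid oxidation genes these values were 0.94, 0.88, 0.46 and 0.50.

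Markers of heart cell types were set beside these values. In HFD minus ND all 6 fibroblast genes were higher (median 0.88), as were 5 of 5 endothelial genes (0.24) and 3 of 3 atrial genes (0.98). Also higher were 2 of 3 smooth muscle genes (0.50), 5 of 8 cardiac muscle genes (0.31) and 2 of 3 macrophage genes (0.17). Of the T cell genes 1 of 3 was higher (-0.017) and of the fat cell genes 0 of 2 (-0.13), against 47.5% of all probe sets. In limma 0 of these genes passed. Mean fibroblast signal ran from 7.82 to 9.02 on the ND arrays and from 8.96 to 9.72 on the HFD arrays, and that of cardiac muscle from 10.83 to 11.05 and from 11.07 to 11.31. In ND+EV minus ND, 6 of 8 cardiac muscle genes (median 0.13), 6 of 6 fibroblast genes (0.37) and 2 of 3 macrophage genes (0.047) were higher. So were 0 of 3 smooth muscle genes (-0.45), 0 of 2 fat cell genes (-0.13) and 1 of 3 atrial genes (-0.14). For T cells it was 1 of 3 (-0.061) and for endothelium 2 of 5 (-0.081), against 49.2% of all probe sets. The part of cell makeup in the members' differences was not tested.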

How the data were processed

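RNA of pig left ventricle (50 ng of total RNA per array, per the labels' protocols) was measured on Affymetrix whole-transcript arrays. The values the authors deposited are log2 signals, 1 per probe set and array, for 11 arrays. Transcriptome Analysis Console is named in the submitters' processing notes. The sources used here give no normalization method, scan batch or genome build, and no coordinates or sequences are printed. The platform annotation, from which genes were named, gave 13157 probe sets 1 symbol, 523 several and 13878 none, and 7 symbols were updated by gene ID. Probe sets with a mean below 3.63 were left out. The fit used limma 3.58.1 in R 4.3.3 (lmFit, eBayes, 7 residual and 3.62 prior degrees of freedom). It was tried on simulated data with independent noise in each probe set, which cannot show the effect of array-wide shifts in spread. The number of arrays limits the precision. Without named animals, p-values measure the spread between these samples.

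The members, gene lists, 5 comparisons and rule for named genes were chosen with earlier results of these data known. The rule named the members, the 3 other pathway genes with the smallest p in each comparison, 8 fixed pathway genes (4 of them without a probe set) and the genes most and least correlated with each member, leaving out uncharacterised loci. The mean diet difference, quantile normalization and a fit without ND replicates 1 and 3 were added after the data were seen. Replicate numbers were not taken as pairs, and whether they mark a shared origin was not tested. In 15 pairs with the same number in different groups, deviations correlated at a median of 0.078 (range -0.10 to 0.33, 5 above 0.1). In 30 pairs with different numbers the median was -0.047 (range -0.34 to 0.19, 5 above 0.1).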

Additional observations from a re-analysis of the deposited data

How the results depend on the processing

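Of 544 member values under 23 alternatives, 515 kept their direction and side of the threshold, 25 changed sign and 4, all of HADH, newly passed. No value that changed sign had passed. For DECR1, cyclic loess and quantile normalization gave -0.063 and -0.043 in HFD minus ND, -0.029 and -0.035 in HFD+EV minus ND+EV, 0.034 and 0.0078 in the difference of the EV differences and -0.046 and -0.039 in the mean diet difference, where SLC25A20 gave -0.072 and -0.065. Without HFD+EV replicate 1 and ND replicates 1 and 3, and without those ND arrays alone, SLC25A20 in the mean diet difference was -0.030 and -0.031, HADH in ND+EV minus ND was -0.087 in both, and ACAA2 in the difference of the EV differences was 0.31 and 0.074, with HADH at 0.053 in the first. SLC25A20 in HFD+EV minus HFD was -0.0036 with a common array median and -0.012 with the replicate number as a block. With array weights HADH in the mean diet difference was 0.55, so that 1 member passed.

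Over all probe sets, the 152 calls in HFD minus ND became 0 with no filter, cyclic loess, quantile normalization, trend and robust eBayes, array weights, only the groups compared, and either set of arrays left out, and 938 with the replicate block. The 242 calls in the mean diet difference became 0 with no filter, cyclic loess, quantile normalization, trend and robust eBayes and without both ND arrays, 463 with a stricter filter, 581 with a common median, 985 with the block and 1665 with array weights. In HFD+EV minus ND+EV, 10 passed with array weights and 2 without both ND arrays. The replicate block, over numbers not known to pair the arrays, made 0 members pass.

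Leaving out 1 array at a time, SLC25A20 ranged from -0.0047 to 0.059 in HFD+EV minus HFD and from -0.0065 to 0.12 in the mean diet difference. DECR1 ranged from -0.064 to 0.38 in HFD+EV minus HFD, -0.073 to 0.22 in HFD+EV minus ND+EV and -0.43 to 0.023 in the difference of the EV differences. HADH ranged from 0.68 to 1.07 in HFD minus ND and from 0.46 to 0.66 in the mean diet difference, with 0 to 1 members passing in each. Calls over all probe sets ranged from 0 to 1353 in HFD minus ND, 0 to 1394 in the mean diet difference, 0 to 2 in ND+EV minus ND and in HFD+EV minus ND+EV, and 0 to 1 in the others. The causes were not tested. Averaging a gene's probe sets was not run, since each member had 1. Without ND replicates 1 and 3 the ND arm is 1 array whose spread is taken from the other groups. With 2 or 3 arrays a group, intervals stayed wide.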
